A study of Homo sapiens with 3 samples.

Results

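The Rab GTPases are the family of small GTP-binding proteins that direct membrane traffic. The genes were taken by name, as protein-coding rows whose symbol is RAB followed by a number and at most a letter and a further digit. This gave 63 genes of the 58735 in the table, or of its 19951 protein-coding genes. RNA came from RPE-1, an established human cell line that derives from retinal pigment epithelium and was immortalised by telomerase expression. The cells carried Cetn2 tagged with GFP, which marks centrioles, and PLK4 under a promoter that rtTA switches on with doxycycline. All 3 libraries were made after scramble siRNA and with no induction of PLK4, so they form 1 group, and no comparison between conditions could be made. Whether the line is a clone, and whether the libraries came from separate cultures, is not stated, so the spread between them may be technical.

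A Rab protein cycles between a GTP-bound form on a membrane, which recruits effectors such as motors and tethers, and a GDP-bound form that a chaperone can lift back into the cytosol. Exchange factors switch Rabs on, and GTPase-activating proteins, mostly with a TBC domain, switch them off. Each Rab marks a set of compartments, from the endoplasmic reticulum and Golgi to endosomes, lysosomes, secretory granules and melanosomes. RPE-1 cells are widely used to study the primary cilium. In their intracellular route of ciliogenesis, RAB11 vesicles bring the exchange factor Rabin8 to the mother centriole, where RAB8 extends the ciliary membrane. RAB34 acts on the ciliary vesicle of the same route, and RAB23 is a ciliary negative regulator of Hedgehog signalling.

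How far paralogues differ in sequence bears on how well reads can be assigned between them. Coding bases are only a part of the annotated exon length, 624 of 5191 bases for RAB8A. The stretches below show how coding sequences differ for ciliary Rabs and for RAB6A, whose retrogene copies are the most alike members. Each is 60 bases of the coding strand around the codons of the nucleotide-binding motif G3 (5′ to 3′), from the GENCODE 29 transcripts, with hg38 positions. Capitals mark bases that differ from the reference gene of the set, which is RAB8A, RAB11A, RAB6A or RAB34. RAB23 stands alone.
RAB8A: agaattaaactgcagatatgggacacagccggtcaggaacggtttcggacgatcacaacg
RAB8B: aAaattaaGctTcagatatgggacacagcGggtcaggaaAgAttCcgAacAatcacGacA
RAB10: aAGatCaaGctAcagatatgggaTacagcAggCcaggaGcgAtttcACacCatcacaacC
RAB11A: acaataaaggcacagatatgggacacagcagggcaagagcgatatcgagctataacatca
RAB11B: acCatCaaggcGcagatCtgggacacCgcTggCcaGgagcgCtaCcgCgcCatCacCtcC
RAB6A: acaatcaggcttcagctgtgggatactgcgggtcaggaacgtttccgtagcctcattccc
RAB6C: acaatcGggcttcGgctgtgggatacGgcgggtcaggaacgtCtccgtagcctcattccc
RAB6D: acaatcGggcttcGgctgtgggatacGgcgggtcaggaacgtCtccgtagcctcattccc
RAB34: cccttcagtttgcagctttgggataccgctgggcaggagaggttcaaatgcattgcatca
RAB36: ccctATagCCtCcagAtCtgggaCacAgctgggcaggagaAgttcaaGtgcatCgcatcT
RAB23: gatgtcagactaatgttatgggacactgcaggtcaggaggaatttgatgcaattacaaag

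RAB8B differed from RAB8A at 11 of these 60 bases, 9 of them at the last position of a codon. RAB10 differed from RAB8A at 14 bases, 12 of them at the last codon position. RAB11B differed from RAB11A at 15 bases, all 15 at the last codon position. RAB36 differed from RAB34 at 13 bases, 9 of them there. RAB6C and RAB6D each differed from RAB6A at 4 bases, 1 of them at the last codon position. The RAB8A stretch (chr19:16118267-16121789, plus strand) and the RAB34 stretch (chr17:28715663-28715816, minus strand) cross an exon junction. The RAB11A stretch (chr15:65877466-65877525, plus strand) and the RAB23 stretch (chr6:57207641-57207700, minus strand) each lie in 1 coding exon. Over whole coding sequences the closest members were RAB6C and RAB6D, with 99.5% identity. RAB8A and RAB8B had 76.5% and RAB11A and RAB11B 72.5%, while RAB23 was no closer than 50.9% to any other member (RAB14). The 50-base words in a member's transcripts were also compared with other genes, on either strand. RAB43 shared most (80.0%), followed by RAB6C (66.1%), RAB23 (57.3%) and RAB6D (56.3%). RAB8A shared 39.1% and RAB6A 20.1%, against 0% for 24 members, among them RAB34, RAB10 and RAB8B. All of the RAB23 share was with the gene BAG2, on the opposite strand. The gene sharing most with RAB8A was the antisense AC008894.2 (18.8%), and with RAB43 the readthrough gene ISY1-RAB43 (77.8%). These 3 genes overlap the member and are not its paralogues. The coding sequences ran from 194 codons (RAB22A) to 1021 (RAB44), with a median of 216.

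Most Rab genes were expressed in these cells. Detection was set at 1 CPM, a count relative to the TMM-scaled library size, to be reached in each of the 3 libraries. Of the 63 Rab genes 48 were detected (76.2%), against 57.7% of all protein-coding genes. Levels between genes are given as RPKM, the CPM per kb of annotated exon. The median RPKM of the 48 detected Rab genes was 9.83, beside 6.09 for the 11508 detected protein-coding genes. With the mean length of annotated coding transcripts in place of all exons the medians were 16.5 and 14.5, so the distance between them depended on the length used. The level of a detected Rab gene was a median of 1.83 times higher with that length, and up to 5.84 times (RAB30), so orders below hold per annotated exon length unless said otherwise. Over all members, detected or not, the median was 6.19 RPKM, beside 1.15 for all protein-coding genes. The detected Rab genes spanned a 253-fold range, from RAB1B at 145 RPKM to RAB43 at 0.572 RPKM. The 5 highest, RAB1B, RAB7A, RAB5B, RAB10 and RAB11B, made up 43.4% of the summed Rab RPKM, and the 10 highest 61.6%. The remaining genes of those 10 were RAB32, RAB35, RAB1A, RAB34 and RAB6A. In the order of levels, the ranges over the 3 libraries overlapped in 40 of 47 steps between detected neighbours, and in 10 of those 40 the order was the same within every library. Steps without overlap lay below RAB7A, RAB29, RAB13, RAB15, RAB24, RAB3A and RAB3D.

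**Figure D1:**
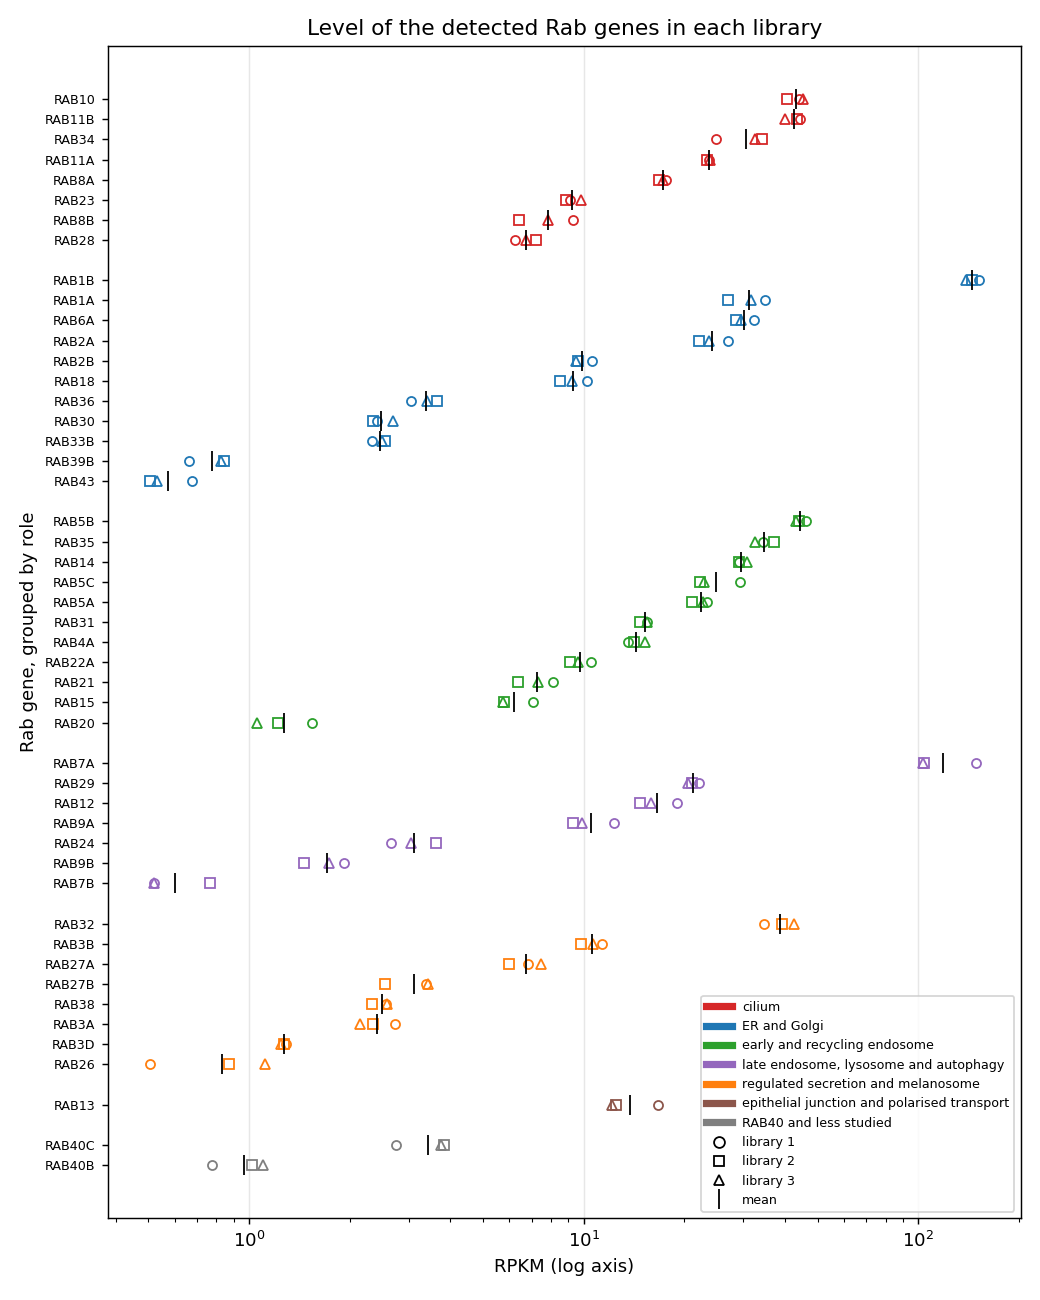
RPKM of the 48 detected Rab genes (log axis), grouped by the compartment each is known for, with a symbol for each library and a bar for the mean of the 3 libraries. RAB1B and RAB7A stand above 100 RPKM in every library, and RAB7A, RAB34 and RAB26 show library 1 apart from the other libraries.

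Libraries held 46625774 to 60040029 counts, and library 1 stood apart over the whole table. Library 1 had counts in 19953 genes, against 24416 in library 2 and 23050 in library 3, although its total exceeded that of library 3. Of the genes whose counts differed by more than counting error, library 1 was the farthest from the others in 66.4%. With all 3 libraries 68.6% of tested genes differed so, and without libraries 1, 2 and 3 in turn 28.1%, 56.8% and 60.7% did. Results of single genes without a library, given below, are to be read beside these shares. Of the fixed markers, the mesenchymal genes VIM, FN1, LGALS1, CD44 and TAGLN were all detected (summed CPM 20849 to 21373). Of the 7 pigment epithelium markers 3 were detected, OTX2, MITF and BEST1. The others, RPE65 (8, 6 and 0 counts), RLBP1 (1, 7 and 3), TYR and TTR (both 0), were at or near 0. This list summed to 47.4 to 51.7 CPM. Epithelial KRT8 and KRT18 were detected (the list summed to 730, 945 and 966 CPM, lowest in library 1) and CDH1, EPCAM and CLDN7 were not. Blood markers summed to 5.83 to 8.06 CPM, highest in library 1, with HBB and CD3E at 0 counts. The part of these markers in the results below was not tested. Neuron markers summed to 103 to 110 CPM, nearly all SYT1, with RBFOX3 and STMN2 at 0 counts, and liver markers to at most 0.0329 CPM.

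All 8 Rab genes placed with the cilium were detected, with a median of 20.5 RPKM and a combined level of 179, 181 and 183 RPKM in libraries 1, 2 and 3. RAB11A (ENSG00000103769, chromosome 15, 65726054 to 65891991, plus strand), which organises recycling endosomes and starts the ciliary cascade, stood at 23.7, 23.4 and 23.9 RPKM. These values hardly varied, and its 6546, 8087 and 6358 counts did not exceed counting error (chi-square test over all genes, adjusted p = 0.498, n = 3 libraries). RAB8A (ENSG00000167461, chromosome 19, 16111629 to 16134234, plus strand), which extends the ciliary membrane, stood at 17.6, 16.8 and 17.2 RPKM. Its spread did not pass either (adjusted p = 0.0660 by the chi-square test), although it did with DESeq2 size factors (adjusted p = 0.0479). Of the exon length of RAB8A, 37.8% lies opposite the antisense gene AC008894.2, which had 13, 14 and 20 counts against 4446, 5292 and 4184 for RAB8A.

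RAB34 and RAB8B varied more between libraries than RAB8A, RAB11A and RAB23, with ratios of highest to lowest CPM of 1.37 and 1.45. RAB34 (ENSG00000109113, chromosome 17, 28714281 to 28718429, minus strand) stood at 24.9, 34.2 and 32.6 RPKM, from 4017, 6903 and 5065 counts. Library 1 was low and libraries 2 and 3 were close to each other. In bulk RNA, fewer cells with a transcript and less of it per cell cannot be told apart. The spread passed the chi-square test (adjusted p = 1.04e-58), and between libraries 2 and 3 alone the adjusted p was 0.0349. RAB8B (ENSG00000166128, chromosome 15, 63189469 to 63267782, plus strand), the paralogue of RAB8A, went a different way, with 9.28, 6.39 and 7.81 RPKM. It was highest in library 1 and lowest in library 2, and its spread passed the chi-square test with all libraries (adjusted p = 1.42e-32) and without library 1 (7.76e-09). RAB23 (ENSG00000112210, chromosome 6, 57186992 to 57222314, minus strand) stood at 9.11, 8.84 and 9.82 RPKM. Its spread passed the chi-square test (adjusted p = 0.00168) but not without library 3 (0.599). Of the exon length of RAB23, 57.7% lies opposite BAG2, a cochaperone gene with 55.9, 51.7 and 55.6 CPM. The strand setting of the counting is not given in the sources used here, so the level of RAB23 (44.9, 43.5 and 48.4 CPM) is uncertain.

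Per annotated exon length, RAB10 and RAB11B were the highest of the ciliary group. With the mean coding transcript length the order was RAB11B (112 RPKM), RAB34 (101), RAB11A (87.4) and then RAB10 (44.4). RAB10, which acts in exocytosis and has been placed at the ciliary base, stood at 43.9, 40.5 and 45.3 RPKM (mean 43.2, n = 3). RAB11B, the second RAB11 gene, stood at 44.4, 43.5 and 39.9 RPKM, lowest in library 3. Both passed the chi-square test with 3 libraries. RAB10 did not without library 2 (adjusted p = 0.0702), and RAB11B did not without library 3 (adjusted p = 0.694). RAB28, known from cone photoreceptor disease, was the lowest of the group by mean at 6.22, 7.20 and 6.72 RPKM. With the mean coding transcript length RAB23 was slightly lower (12.3 against 12.6 RPKM). The spread of RAB28 passed the chi-square test (adjusted p = 0.0233) but not without library 1 (0.318) or without library 2 (0.222).

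The Rab genes of the endoplasmic reticulum and Golgi held 28.6% of the family's summed RPKM, and RAB1B alone gave 145 of their 259 RPKM. Their detected members were the largest group by annotated exon length, but with the mean coding transcript length they summed to 497 RPKM, beside 499 for early and recycling endosomes and 463 for late endosomes. RAB1B, which moves vesicles from the endoplasmic reticulum to the Golgi, stood at 152, 144 and 139 RPKM (ENSG00000174903, chromosome 11, 66268533 to 66277492). Per annotated exon length this was the highest level of any Rab gene by mean, at the 98.4 percentile of detected protein-coding genes. RAB7A stood above RAB1B by CPM (322 against 291) and with the mean coding transcript length (368 against 194 RPKM). Of the RAB1B exon length 42.6% lies opposite 2 noncoding genes. The better expressed of them, AP001107.2, had 36, 89 and 61 counts against 14789, 17605 and 13024 for RAB1B. RAB1A, the partner of RAB1B in the same step, stood at 34.8, 27.0 and 31.6 RPKM. RAB6A, which acts at the trans-Golgi, stood at 32.4, 28.5 and 29.6, and RAB2A, of Golgi transport, at 27.1, 22.1 and 23.6. All 3 genes were highest in library 1 and lowest in library 2. Of the RAB1A exon length 22.9% lies opposite CEP68, which had 16.1, 19.8 and 19.0 CPM against 115, 89.5 and 105 for RAB1A. RAB2B (9.91 ± 0.611 SD) and RAB18 (9.32 ± 0.876), which works at the endoplasmic reticulum and lipid droplets, followed at a lower level. RAB36, RAB30, RAB33B and RAB39B lay between 0.776 and 3.38 RPKM. RAB43 was the lowest detected member of the family per annotated exon length, with 164, 154 and 124 counts. RAB39B was lower with the mean coding transcript length (0.776 against 0.940 RPKM), and RAB20 was lower by CPM (1.94 against 2.85). Of the RAB43 exon length 79.3% is shared on the same strand with ISY1-RAB43, a readthrough gene that had 0 counts. How reads on shared exons were counted is not given in the sources used here.

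Early and recycling endosomes were served by 11 detected Rab genes of 12, with 23.1% of the summed RPKM. The RAB5 genes, which define early endosomes, were all expressed: RAB5B at 46.2, 43.9 and 43.0 RPKM, RAB5C at 29.3, 22.3 and 22.8, and RAB5A at 23.4, 21.1 and 22.7. RAB5C was high in library 1 and nearly equal in libraries 2 and 3, where its difference did not pass (adjusted p = 0.539 without library 1, against 3.96e-37 with it, by the chi-square test). Of RAB5C's exon length 28.8% is shared on the same strand with AC099811.2, which had 0 counts. RAB35, of fast recycling, stood at 34.3, 37.1 and 32.5 RPKM, and RAB14, between Golgi and endosomes, at 29.1, 29.1 and 30.7. RAB31, RAB4A, RAB22A, RAB21 and RAB15 lay between 6.19 and 15.2 RPKM, and RAB20 was low at 1.28 RPKM. RAB4B was not detected, with 0, 21 and 14 counts, although its paralogue RAB4A, of rapid recycling, had 2175, 2852 and 2365. Of RAB4B's exon length 36.8% is shared with the readthrough genes RAB4B-EGLN2 and MIA-RAB4B, which both had 0 counts.

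Late endosome, lysosome and autophagy Rab genes were all detected, 7 of 7, and RAB7A dominated them. RAB7A (ENSG00000075785, chromosome 3, 128726122 to 128814796, plus strand), which drives the maturation of late endosomes and their fusion with lysosomes, stood at 149, 104 and 103 RPKM, from 19638, 17123 and 13119 counts. Library 1 was 1.44-fold above the lowest library, and libraries 2 and 3 were nearly equal. The spread passed the chi-square test with all libraries, also with a further coefficient of variation of 0.05 granted (adjusted p = 1.45e-07), but libraries 2 and 3 did not differ by it (adjusted p = 0.792). RAB9A, of transport from late endosomes to the Golgi, was also highest in library 1, with 12.4, 9.33 and 9.87 RPKM, as was RAB12, with 19.0, 14.7 and 15.8. Neither passed without library 1 (adjusted p = 0.349 and 0.0633 by the chi-square test). RAB29, which recruits the kinase LRRK2, stood at 22.2, 21.1 and 20.5 RPKM. RAB24, linked to autophagy, was lowest in library 1, with 2.65, 3.62 and 3.05 RPKM. Its spread passed the chi-square test (adjusted p = 0.000467) but not without library 1 (0.0734) or without library 2 (0.146). RAB24 shares 44.8% of its exon length on the same strand with MXD3, which was lowest in library 1 too (19.7, 28.1 and 25.1 CPM). RAB9B (1.71 RPKM) and RAB7B (0.602 RPKM) were low.

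Among the Rab genes of regulated secretion and melanosomes, RAB32 was the highest. RAB32, which with RAB38 delivers enzymes to melanosomes, stood at 34.5, 39.1 and 42.5 RPKM, and RAB38 at 2.57, 2.33 and 2.58. RAB27A, which ties melanosomes and secretory granules to the cortex, stood at 6.81, 5.97 and 7.45 RPKM and RAB27B at 3.37, 2.54 and 3.43. Both RAB27 genes were lowest in library 2. Of the listed pigment genes only MLPH, the melanophilin that links RAB27A to myosin (50.5, 43.7 and 40.7 CPM), and PMEL (1.57, 1.83 and 2.46 CPM) were detected, 2 of 11, and TYR, DCT, OCA2 and MLANA had 0 counts. RAB3B was the main RAB3 gene, whose products act in regulated exocytosis, at 11.4, 9.80 and 10.6 RPKM. RAB3A stood at 2.41 ± 0.295 RPKM (SD, n = 3) and RAB3D at 1.27 ± 0.0218, while RAB3C had 0 counts. Of the RAB3D exon length 23.8% lies opposite CCDC159 and AC011472.3, and 4.37% is shared on the same strand with TMEM205 and AC011472.2. CCDC159 had 2.76, 3.44 and 3.23 CPM and TMEM205 12.9, 15.0 and 13.4, against 5.71, 5.61 and 5.51 for RAB3D. RAB26 had 61, 132 and 130 counts (0.505, 0.873 and 1.12 RPKM), lowest in library 1. The highest CPM was 2.21 times the lowest, the widest range of any detected Rab gene, and without library 1 it did not pass the chi-square test (adjusted p = 0.125).

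Genes of polarised epithelial transport were mostly absent. RAB25 had 0 counts in each library, which allows up to 0.0618, 0.0494 and 0.0641 CPM (floors of 3 counts, counting error only). RAB17 had 13, 6 and 11 counts. RAB13, which acts in tight junction assembly, was detected at 16.7, 12.5 and 12.2 RPKM, and was highest in library 1. The chi-square test called its spread with all libraries (adjusted p = 9.42e-27) and not without library 1 (0.573). AL358472.6 (19, 32 and 22 counts) covers 24.8% of the RAB13 exon length on the same strand. Of the RAB40 genes, whose products join ubiquitin ligases, RAB40C stood at 3.44 ± 0.594 RPKM and RAB40B at 0.966 ± 0.170 (SD, n = 3), both lowest in library 1. Without library 1 neither passed the chi-square test (adjusted p = 0.782 and 0.516).

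In all, 15 Rab genes fell below detection. RAB25, RAB3C, RAB19, RAB41 and RAB39A had 0 counts in all 3 libraries. RAB6B, the neuronal RAB6, had 0, 2 and 1 counts, RAB6C 2, 2 and 1, RAB6D 0, 3 and 1, RAB33A 0, 2 and 2, and RAB37 0, 7 and 6. RAB42 had 7, 4 and 5 counts and RAB40A 4, 12 and 5. RAB44, a large Rab with an EF-hand, came closest to detection with 30, 55 and 38 counts (0.618 to 0.905 CPM), and RAB4B and RAB17 are given above. RAB4B, RAB33A, RAB37, RAB6B and RAB6D lacked counts in library 1 but had some in both other libraries, a pattern seen in 2785 genes of the whole table. Since RAB6C and RAB6D are near-identical to each other and close to RAB6A, their few counts are uncertain.

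Counting error alone is the yardstick of the chi-square test used throughout, which compares the counts of a gene with those that the TMM-scaled library sizes predict. Of 51 Rab genes averaging 10 counts or more, 42 passed at an adjusted p under 0.05 (82.4%), against 68.6% of all 16293 genes tested and 73.7% of those that are protein-coding. Among detected genes 41 of 48 Rab genes passed, beside 75.6% of detected genes of all kinds. At higher counts this test passes smaller differences. The median was 43.3 CPM for detected Rab genes, beside 33.0 for detected protein-coding genes. The part of this in the shares was not tested. The detected genes that did not pass were RAB11A, RAB8A, RAB38, RAB33B, RAB3A, RAB3D and RAB39B. With a further coefficient of variation of 0.05 granted, 19 of 51 passed (37.3%), near the 32.7% of all genes. Without library 1, 21 of 50 passed, against 28.1% of all genes.

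Differences between libraries were small in size. The median ratio of highest to lowest CPM was 1.22 for detected Rab genes and 1.19 for all detected genes. Among the 48, only RAB26 reached a ratio of 1.5, that is 1 of 48, while 10.7% of all detected genes did. The next widest were RAB7B (1.47), RAB20 (1.47), RAB8B (1.45) and RAB7A (1.44). RAB7B had 93, 171 and 90 counts and stood out in library 2, so its spread did not pass without library 2 (adjusted p = 0.983, against 0.00270 with it, by the chi-square test). RAB20, an endosome and phagosome Rab with 114, 113 and 75 counts, did not pass without library 1 (0.497) or without library 3 (0.138).

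More Rab genes were highest in library 1 than in either other library. Of the 42 genes that passed, 24 were highest in library 1, 8 in library 2 and 10 in library 3, and 11 were lowest in library 1. Over all tested genes, 27.9% passed and were highest in library 1, against 47.1% of the 51 tested Rab genes. These shares of genes highest in library 1 were 24.6% and 37.3% with library sizes unscaled, and 28.3% and 49.0% with DESeq2 size factors. Of all tested genes 33.4% passed and were lowest in library 1. Of the 51 Rab genes 24 passed and had library 1 farthest from the others, beside 45.6% of all tested genes. The summed CPM of the 63 genes was 3620, 3260 and 3351 in libraries 1, 2 and 3. As a share of all counts the family took 0.357% (95% exact binomial interval 0.355 to 0.358%), 0.330% (0.328 to 0.331%) and 0.336% (0.335 to 0.338%), with intervals that cover counting error only. Library 1 was high by RPKM as well, at 965 against 872 and 885, of which RAB7A alone gave 149 against 104 and 103. Per summed RPKM of all protein-coding genes the order turned, with 0.308% in library 1 and 0.323% and 0.320% in libraries 2 and 3.

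**Figure D2:**
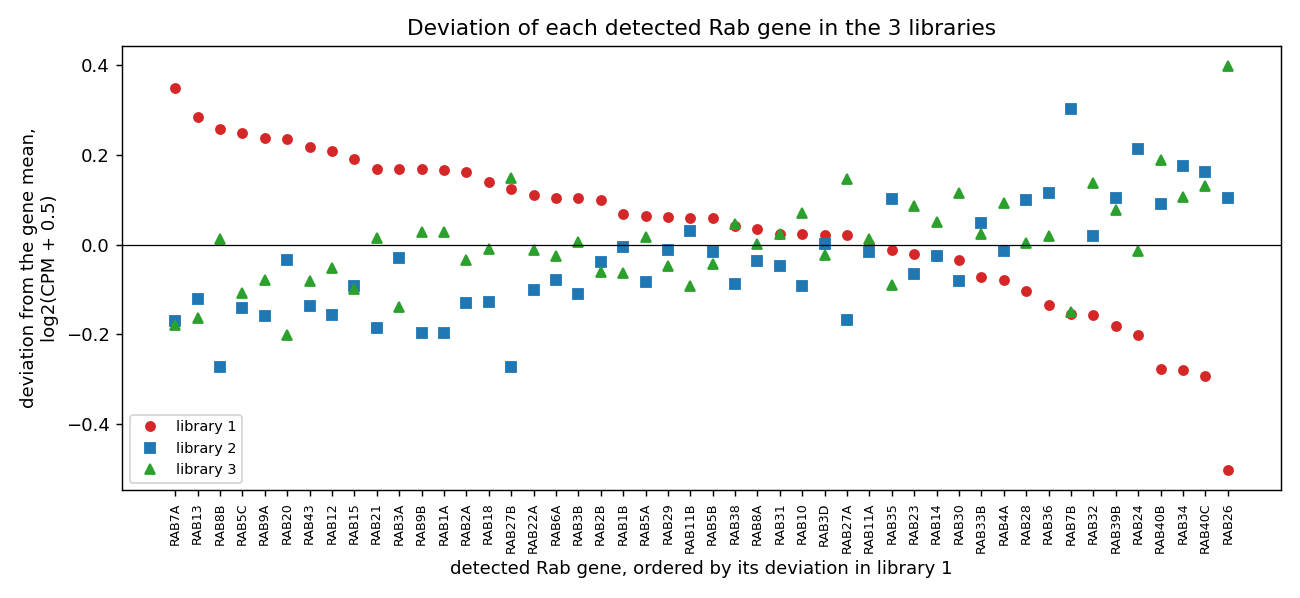
Deviation of each detected Rab gene from its own mean over the 3 libraries, in log2(CPM + 0.5), with genes ordered by their deviation in library 1. RAB7A, RAB13 and RAB8B lie at the high end of library 1 and RAB26, RAB40C and RAB34 at the low end.

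Pairs of Rab genes, paralogues among them, were compared by level per annotated exon length. For 28 pairs the length-normalised log2 ratio was taken within each library with a pseudocount of 0.5 count, and in all 28 the same gene was higher in 3 of 3 libraries. The exact sign-flip test with 3 libraries cannot go below 0.25, so every pair had an exact p of 0.25, also adjusted over the 28 pairs. RAB8A exceeded RAB8B by 2.22-fold (log2 ratio 1.15 ± 0.23 SD, n = 3). RAB11B exceeded RAB11A by 1.79-fold per length (log2 ratio of RAB11A to RAB11B -0.84 ± 0.09), but without length RAB11A had more counts (0.36). RAB11A exceeded RAB25, the epithelial RAB11, at least 634-fold with a floor of 3 counts per library. RAB11A in turn exceeded RAB8A by 1.38-fold (2.03-fold with the mean coding transcript length). RAB10 exceeded RAB8A by 2.51-fold, but with that other length by only 1.03-fold. RAB34 exceeded its paralogue RAB36 by 8.98-fold, and exceeded RAB23 by 3.27-fold (8.11-fold with the other length).

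Outside the cilium, too, the same gene of each pair was higher in every library. RAB1B exceeded RAB1A by 4.68-fold, RAB2A exceeded RAB2B by 2.44-fold and RAB9A exceeded RAB9B by 6.15-fold. With the mean coding transcript length the ratios of these last pairs were 5.90 and 12.3. RAB7A exceeded RAB7B by 197-fold (349-fold with that length) and RAB32 exceeded RAB38 by 15.4-fold. RAB27A exceeded RAB27B by 2.17-fold and RAB40C exceeded RAB40B by 3.56-fold. RAB6A exceeded RAB6B, whose 3 counts in all make the size uncertain, by a ratio of summed counts per length of 9385 (95% exact interval 3211 to 45513, for counting error over pooled libraries only, as for the next ratios). RAB33B exceeded RAB33A by 121 (47.3 to 446), and RAB39B exceeded RAB39A, at 0 counts, at least 19.7-fold. RAB37 stood at 0.0197 of RAB26 (0.0104 to 0.0342). Among the RAB5 genes, RAB5B exceeded RAB5A by 1.98-fold (3.08-fold with the mean coding transcript length) and RAB5C by 1.80-fold, while RAB5C and RAB5A were near equal (1.10-fold, log2 ratio 0.14 ± 0.17 SD, below its spread) and changed order without length (-0.32). RAB3B exceeded RAB3A by 4.40-fold per length (2.71-fold with the mean coding transcript length), and its exons, 12844 bases in all, are far longer than the 1818 of RAB3A, so the ratio without length was larger (log2 4.96 against 2.14). RAB31 exceeded RAB22A by 1.56-fold and RAB32 exceeded RAB29 by 1.81-fold per length, and both orders turned without length, that of RAB32 and RAB29 also with the mean coding transcript length.

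**Figure D3:**
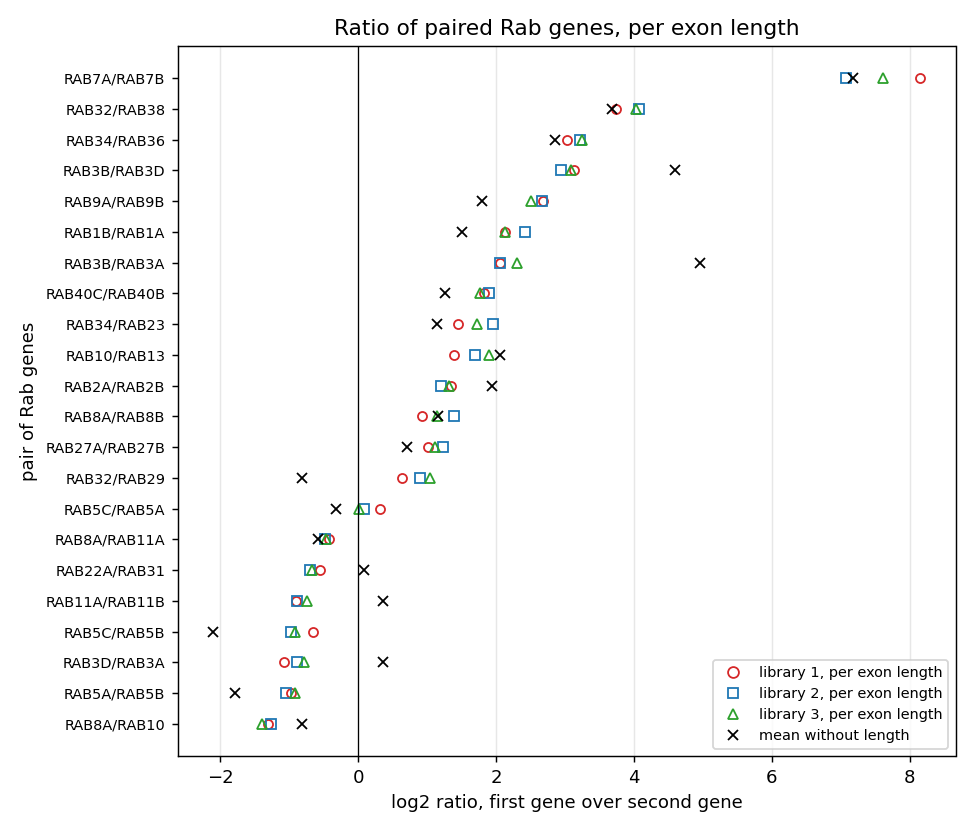
Log2 ratio of the 22 pairs whose genes were both detected, per exon length in each library (coloured symbols), with the mean ratio without length as a cross. Crosses on the other side of 0 mark pairs whose order depends on length, such as RAB11A/RAB11B and RAB32/RAB29.

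Most of the machinery that serves Rabs was detected, where 57.7% of all protein-coding genes were. The chi-square test of spread was passed by 68.6% of all tested genes and 75.6% of detected genes. The counts that passed, here and for the lists below, are to be read beside these shares. All 8 genes for Rab prenylation and recycling were detected, led by GDI2 (72.3 ± 3.79 RPKM, SD, n = 3), a chaperone that extracts Rabs from membranes. CHM, the escort protein for prenylation, was the lowest at 3.76 ± 0.215, and 5 of the 8 passed the chi-square test of spread. Exchange factors were detected for 40 of 42 genes (median 3.90 RPKM), with RAB3GAP1 (18.2 ± 0.529), part of an exchange factor for RAB18, and SBF1 (16.8 ± 3.57) at the top. DENND2C was the lowest detected (0.174 ± 0.0243), DENND1C and DENND2D were below detection, and 26 of 41 tested passed. All 14 TRAPP subunits, which serve as exchange factors for RAB1 and RAB11, were detected, from TRAPPC1 (71.6 ± 3.51) and TRAPPC3 (19.4 ± 0.432) down to TRAPPC5 (0.244 ± 0.0497), and 9 of 14 passed. Of the GTPase-activating proteins 36 of 42 were detected (median 5.42 RPKM), led by TBC1D2 (39.8 ± 5.01), which acts on RAB7, and TBC1D9 (17.6 ± 0.845), with SGSM3 lowest (0.257 ± 0.0329, 62.4% of exon length shared on the same strand), and 28 of 36 tested passed. Of the effectors 51 of 58 were detected (median 7.52 RPKM), led by USO1 (41.0 ± 1.15), the RAB1 tether p115, and TBC1D2, with EXPH5 lowest (0.345 ± 0.0221), and 41 of 56 tested passed. A gene may stand in more than one of these lists.

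**Figure D4:**
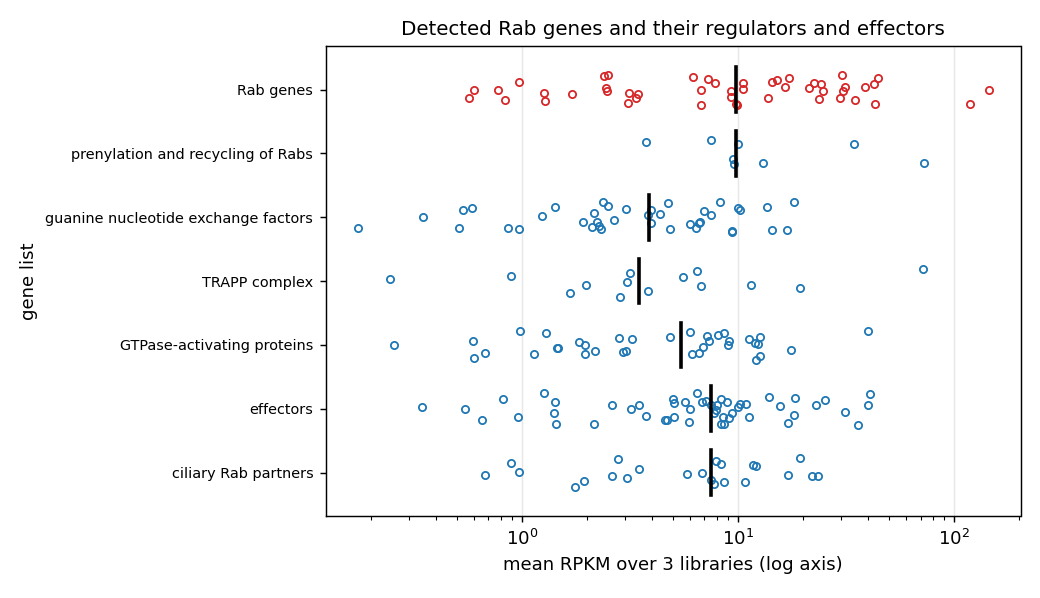
Mean RPKM over the 3 libraries (log axis) of the detected Rab genes and of the detected genes of 6 lists of Rab regulators and effectors, with a circle per gene and a bar at the median. Rab genes and the prenylation and recycling list have medians near 10 RPKM, and the other lists have lower ones.

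Of 24 genes that work with Rabs in ciliogenesis 23 were detected, against 57.7% of all protein-coding genes, with a median of 7.52 RPKM. The chi-square test of spread was passed by 17 of 23 tested, near the 75.6% of all detected genes. PACSIN2 (23.4 ± 1.67 RPKM, SD, n = 3) and EHD1 (22.0 ± 3.01), which shape the ciliary vesicle, were the highest. EHD1 stood at 134, 176 and 159 CPM, lowest in library 1, where 33.4% of all tested genes passed and were lowest. RAB3IP, which encodes Rabin8, the exchange factor between RAB11 and RAB8, stood far below both, with 12.9, 11.9 and 11.8 CPM or 0.968 ± 0.0490 RPKM. The effectors RAB11FIP3 (7.96 ± 0.668), which binds RAB11 and Rabin8, and WDR44 (8.33 ± 1.17), which competes for RAB11, were at like levels. MYO5A, the motor that carries preciliary vesicles, stood at 7.52 ± 0.337 RPKM, and the Rab effectors RILPL2 and RILPL1 at 8.64 ± 0.763 and 3.50 ± 0.516. TBC1D30, a GTPase-activating protein for RAB8, was the lowest detected (0.677 ± 0.0666), and PACSIN1 had 0, 3 and 4 counts. Of the enzymes that add or remove phosphate on Rabs and their partners, TBK1 stood at 15.9 ± 1.08 RPKM, PPM1H at 1.64 ± 0.237, LRRK1 at 1.07 ± 0.130 and LRRK2 at 0.523 ± 0.0186. VPS35, a retromer subunit tied to LRRK2 activity, was the highest of that list at 18.5 ± 1.05 RPKM, and 4 of its 5 genes passed.

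Of 10 listed Rab-like genes that the name rule leaves out 8 were detected. Their median was 4.78 RPKM, beside 9.83 for the detected Rab genes. RAN, the nuclear transport GTPase of the same superfamily, stood at 116 ± 5.41 RPKM (SD, n = 3), between RAB1B and RAB5B and close to RAB7A. RABL6 followed at 12.8 ± 0.503, and the Rab-like intraflagellar transport genes IFT22 and IFT27 stood at 8.60 ± 1.20 and 2.08 ± 0.103. RABL2A was the lowest detected at 0.938 ± 0.0548, and its near-identical copy RABL2B stood at 5.23 ± 0.353, so reads may be divided between them. Of the 10 listed genes RAB40AL (4, 10 and 5 counts) and CRACR2A (0 counts) were below detection.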

How the data were processed

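The deposited table gives raw counts, as whole numbers for each gene. Per the submitters' processing notes, cutadapt 1.16, STAR 2.5.2a, featureCounts 1.6.2 and hg38 were used, without roles or settings. Annotation, strandedness and the handling of reads on shared exons: not given in the sources used here. A further 6 columns matched no label and were left out. All 58735 gene identifiers matched GENCODE 29, which gave positions, exon lengths and transcripts.

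TMM factors came from edgeR 4.0.16 in R 4.3.3 (0.985, 1.01 and 1.00), and DESeq2 1.42.0 gave alternative size factors. The chi-square test with 3 libraries (2 degrees of freedom, scipy 1.17.1) covered the 16293 genes averaging 10 counts or more. Its p-values were adjusted by Benjamini-Hochberg over all of them at 0.05. Without a library it had 1 degree of freedom, with TMM factors from the remaining libraries. It then covered 16321, 16130 or 16500 genes without library 1, 2 or 3. The code was run on counts simulated with counting error only, which cannot show its behaviour under wider spread. The test measures spread between libraries of 1 group only. Coding sequences were aligned globally with Biopython 1.88. The members and the gene lists were chosen with earlier results of these data known. Genes described were the 5 ciliary Rabs, the 10 highest, the paired genes, those below detection and the 5 that varied most in CPM. From each list the rule took the 2 highest, the lowest detected and, where 5 or fewer, those below detection, with some ciliary partners fixed by name. Named after their values were seen were the remaining Rab genes, overlapping genes, TYR, DCT, OCA2, MLANA, PPM1H, LRRK1, IFT22, IFT27 and RABL2B. A gene that this rule took from the lists is not reported here.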

Additional observations from a re-analysis of the deposited data

How the results depend on the processing

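The number of detected Rab genes was 48 under DESeq2 size factors, under unscaled totals and without each library in turn, and 49 or 40 with a detection limit of 0.5 or 5 CPM. Their median level was 9.83 RPKM, 9.54 to 10.01 without each library in turn, 16.5 with the mean coding transcript length and 6.19 over all members. The number with a spread beyond counting error was 42 of 51 tested, where 68.6% of all tested genes passed. It was 43 under DESeq2 size factors (68.6% of all genes) and 38 under unscaled totals (69.3%). With an extra coefficient of variation of 0.05 it was 19 (32.7% of all genes). Without libraries 1, 2 and 3 in turn it was 21, 32 and 34 of 50 (28.1%, 56.8% and 60.7% of all genes). The mean share of all counts was 0.341%, and 0.333 to 0.346% without each library in turn. Members with at least 20% of shared same-strand exon length were also left out. Of the others 44 were detected, and 37 of 46 tested passed the test of spread, beside 68.6% of all genes. Without length, 5 pairs turned their order (log2): RAB11A/RAB11B to 0.36, RAB3D/RAB3A to 0.36, RAB5C/RAB5A to -0.32, RAB22A/RAB31 to 0.0900 and RAB32/RAB29 to -0.81. With the mean coding transcript length RAB32/RAB29 turned to -0.27, 40 of 48 levels moved by more than their SD, and 10 of 22 folds between detected pairs moved by over 1.5 times. These turns follow from the lengths themselves. No pair turned its order under either scaling, a pseudocount of 2 counts or without any library. No paired analysis was possible because only 1 group was present. Depth was high for detected genes, and the precision of members with few counts is limited by counting error.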
